A study of Homo sapiens with 6 samples.

Results

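The genes described here encode the PI3K, AKT, mTOR and FOXO pathway: the kinases, their regulatory subunits, the phosphatases that oppose them and the proteins they phosphorylate. Of 33 genes listed by symbol, 32 had a row in the deposited table of 25706 genes and all 32 passed the filter on low counts, which 15951 genes passed in all. INPP5D was the gene without a row and was not analysed here. The genes were listed by symbol for their place in the pathway, with earlier results of these data known. RNA came from MDA-MB-231 cells, an established human line of triple-negative breast cancer with a mesenchymal character. In 3 libraries the cells overexpressed tsRNA-Gly-5-0006, which belongs to the tRNA-derived small RNAs, and 3 libraries came from cells labelled control. The labels do not say how the small RNA was delivered, what the control cells received, or whether the replicates were separate cultures, so p-values measure the spread between these samples, which may be technical. The RNA was captured with oligo(dT), so the overexpressed molecule itself has no value in these files, and deposited expected counts summed to 54371226 to 74586916 per library.

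In cells, receptor tyrosine kinases recruit class I PI3K through adaptors such as the IRS proteins, and the lipid it makes draws AKT to the membrane, where PDPK1 and mTOR complex 2 activate it. AKT then inhibits the GSK3 kinases, keeps FOXO transcription factors out of the nucleus and relieves the block that TSC1 and TSC2 place on RHEB, the GTPase that activates mTOR complex 1. The pathway is often activated in breast cancer, and FOXO factors in turn raise the transcription of several receptors and adaptors of the pathway. These steps run through lipids and phosphorylation, which mRNA levels do not measure.

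The labelled line was checked against its markers. VIM, a mesenchymal filament protein, had 365 to 460 FPKM (fragments per kilobase of transcript, scaled to library size), and AXL had 36.4 to 65.4. ESR1 and FOXA1 had no row, PGR was listed at 0 in 5 of 6 libraries, and CDH1 had at most 0.0424 FPKM. The keratins KRT8, KRT18 and KRT19, which are also on the luminal list, were high (482 to 2510 FPKM). Overexpression 1 stood apart: the 14 fibroblast markers summed to 326 CPM (deposited counts scaled to library size) there and to 75.6 to 108 in the other 5 libraries. COL3A1, DCN and FAP were above 0 in that library alone. COL5A1 was the exception on the list, at 4.63 FPKM in overexpression 1 and 3.26 to 5.32 in the other libraries. All other fibroblast markers were highest in overexpression 1, PDGFRB only slightly (0.933 FPKM against 0.551 to 0.832).

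The insulin receptor substrates IRS1 and IRS2, which dock PI3K to insulin and IGF receptors, were present at low levels. IRS1 had 0.948, 0.716 and 0.799 FPKM in the control libraries and 1.08, 0.786 and 0.687 in the overexpressing libraries, each given in the order of their replicate numbers, the order used throughout. IRS2 ranged from 0.520 to 0.761 FPKM, and IRS1 exceeded IRS2 in all 6 libraries by 1.13 to 1.72 times. For both genes the groups overlapped.

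Among the catalytic subunits of class I PI3K, PIK3CD (p110 delta) had the highest level. It had 1.55, 1.61 and 1.37 FPKM in control and 1.85, 1.83 and 1.34 in overexpressing libraries. PIK3CB (p110 beta) had 0.371 to 0.583 FPKM. PIK3CA (p110 alpha), the isoform most often mutated in breast cancer, had 0.0488, 0.0614 and 0.0850 FPKM in control and 0.130, 0.0793 and 0.0553 in overexpressing libraries. PIK3CD exceeded PIK3CA by 14.2 to 31.8 times within a library, and the smallest ratio was that of overexpression 1. PIK3CD overlaps CLSTN1 on the opposite strand, which had 4624 to 6558 counts against 882 to 1400 for PIK3CD. Whether counting used strand is not given in the sources used here, so part of the PIK3CD level cannot be told apart from CLSTN1.

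The regulatory subunits stabilise and restrain the catalytic ones. PIK3R2 (p85 beta) was the abundant one, at 26.6, 22.5 and 12.2 FPKM in control and 24.8, 24.7 and 18.4 in overexpressing libraries. PIK3R1 (p85 alpha) had 0.0369, 0.0307 and 0.0168 FPKM in control against 0.150, 0.0669 and 0.0393 in overexpressing libraries. The gene, ENSG00000145675, lies at chr5:68215740-68301821 on hg38. Its groups did not overlap, and the values rested on 24 to 37 counts in control and 52 to 194 in overexpressing libraries. PIK3R3 (p55 gamma) had 0.0405 to 0.125 FPKM, with the highest value in overexpression 1. PIK3R2 exceeded PIK3R1 by 722 to 732 times in control and by 165 to 469 times in overexpressing libraries.

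Control 3 had the lowest PIK3R2 value, and it was also the library in which a gene that overlaps PIK3R2 on the same strand, ENSG00000268173, had its highest count. That gene had 646 and 941 counts in control 1 and 2, 7696 in control 3, and 922 to 1354 in overexpressing libraries. PIK3R2 itself had 5151 counts in control 3, which was 40.1% of the sum of both rows. In the other 5 libraries it made up 84.7% to 92.6% of that sum. The sum of both was 162, 142 and 172 CPM in control and 155, 155 and 122 in overexpressing libraries, so the low place of control 3 was not present in the sum. The levels of PIK3R2 and of the overlapping gene are therefore uncertain in each library.

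**Figure D1:**
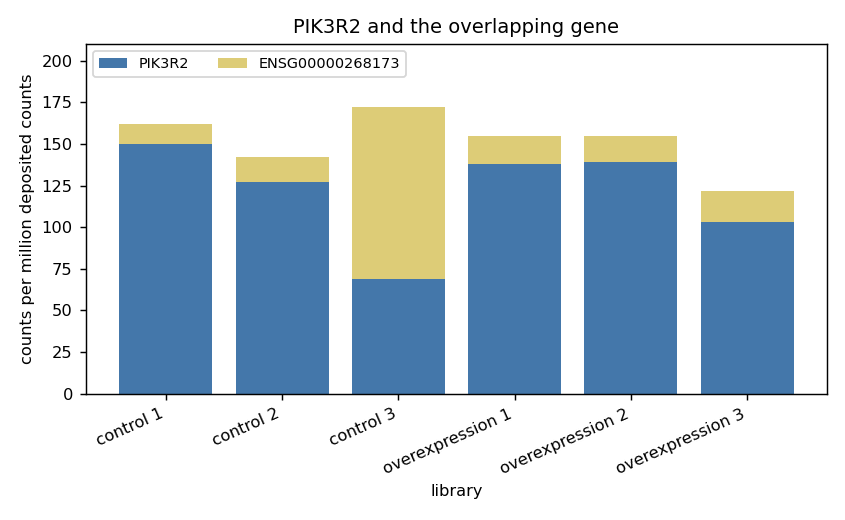
CPM of PIK3R2 and of the overlapping ENSG00000268173, stacked, in each of the 6 libraries. PIK3R2 made up 40.1% of the bar in control 3 and 84.7% to 92.6% in the others.

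Phosphatases that oppose the pathway had low levels. INPP4B, which removes a phosphate from the PI3K lipid product PI(3,4)P2, had 0.247, 0.320 and 0.333 FPKM in control and 1.29, 0.422 and 0.237 in overexpressing libraries. The high value was that of overexpression 1, and overexpression 3 lay below every control in FPKM. In log2 CPM scaled between libraries by TMM, overexpression 3 lay just above control 1. PHLPP1 and PHLPP2, which dephosphorylate AKT, had 0.104 to 0.167 and 0.0428 to 0.0866 FPKM, and their groups overlapped.

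Of the kinases activated downstream of the lipid, AKT1 was abundant and steady. It had 30.0, 30.3 and 29.2 FPKM in control and 32.1, 28.9 and 30.5 in overexpressing libraries. AKT2 had 6.06, 6.10 and 5.21 FPKM in control against 5.46, 5.71 and 4.46, and AKT1 exceeded it by 4.95 to 6.83 times. PDPK1, the kinase that phosphorylates the activation loop of AKT, SGK and S6 kinases, had 0.277 to 0.327 FPKM in 5 libraries and 0.499 in overexpression 1. SGK1, a relative of AKT that is itself induced at the mRNA level by growth factors and steroids, had 0.456, 0.526 and 0.524 FPKM in control and 1.32, 0.350 and 0.328 in overexpressing libraries. For SGK1 the value of overexpression 1 was above all controls, and those of overexpression 2 and 3 were below all of them. SGK3, a relative bound to endosomes, had 0.0477 to 0.170 FPKM.

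GSK3A and GSK3B, kinases that AKT inhibits, had very unequal FPKM values. GSK3A had 24.2, 25 and 23.1 FPKM in control and 21.4, 25.4 and 21.6 in overexpressing libraries. GSK3B had 0.148 to 0.172 FPKM in 5 libraries and 0.227 in overexpression 1. GSK3A exceeded GSK3B by 94.3 times in overexpression 1 and by 141 to 160 times in the other libraries.

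The FOXO factors, which AKT holds in the cytoplasm and which drive genes of cell cycle arrest, apoptosis and metabolism, were ordered FOXO4, FOXO3, FOXO1 in every library. FOXO4 had 3.48, 3.23 and 3.04 FPKM in control and 2.52, 3.17 and 2.39 in overexpressing libraries. Here 2 of 3 overexpressing libraries lay below all controls in FPKM. FOXO3 had 0.584, 0.549 and 0.612 FPKM in control and 0.703, 0.644 and 0.649 in overexpressing libraries, without overlap in FPKM. FOXO3B, a near-identical copy of FOXO3, had 19 to 57 counts against 266 to 426 for FOXO3, and reads may be split between them. FOXO1 had 0.0448, 0.0432 and 0.119 FPKM in control and 0.113, 0.0956 and 0.0823 in overexpressing libraries, so control 3 was higher than all overexpressing libraries and the other controls were lower than all.

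FOXO factors bind DNA at the core GTAAACA. RefSeq promoter windows of 300 bases on GRCh38.p14 were matched by symbol for 28 of the 32 members, and with INPP5D there were 53 windows. No entry was matched for MLST8, AKT1S1, EIF4EBP1 and SGK3. The core, searched on both strands as GTAAACA or TGTTTAC, was found in 2 of the 53 windows (3.77%) and in 1202 of 35116 windows of all genes (3.42%). These 2 belong to PIK3CA and to FOXO4 itself. They are printed 5′ to 3′ with the core in capitals, from chr3:179148107-179148406 and chrX:71095601-71095900, both on the plus strand. The windows of the S6 kinase genes, described next, are shown because RPS6KB1 had the largest log2 fold change of the members and RPS6KB2 is its abundant relative. They lie at chr17:59892871-59893170 and chr11:67428244-67428543, also on the plus strand. Neither holds the 7-base core, and the capitals in RPS6KB2 mark the shorter TAAACA, read as TGTTTA, which 12.3% of all windows hold. GC content was 56.7% in the RPS6KB1 window and 64% in that of RPS6KB2.
PIK3CA: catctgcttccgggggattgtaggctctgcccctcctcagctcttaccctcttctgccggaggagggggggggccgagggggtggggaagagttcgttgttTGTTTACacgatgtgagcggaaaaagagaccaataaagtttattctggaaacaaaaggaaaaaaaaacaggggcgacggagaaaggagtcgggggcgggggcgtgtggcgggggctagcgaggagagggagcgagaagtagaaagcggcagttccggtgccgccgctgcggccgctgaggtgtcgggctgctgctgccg
FOXO4: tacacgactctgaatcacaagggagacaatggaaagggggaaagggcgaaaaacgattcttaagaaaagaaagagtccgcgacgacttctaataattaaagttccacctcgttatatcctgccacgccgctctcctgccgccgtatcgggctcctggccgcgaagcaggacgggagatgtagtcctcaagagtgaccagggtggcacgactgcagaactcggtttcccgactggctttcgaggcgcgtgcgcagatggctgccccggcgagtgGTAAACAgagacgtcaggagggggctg
RPS6KB1: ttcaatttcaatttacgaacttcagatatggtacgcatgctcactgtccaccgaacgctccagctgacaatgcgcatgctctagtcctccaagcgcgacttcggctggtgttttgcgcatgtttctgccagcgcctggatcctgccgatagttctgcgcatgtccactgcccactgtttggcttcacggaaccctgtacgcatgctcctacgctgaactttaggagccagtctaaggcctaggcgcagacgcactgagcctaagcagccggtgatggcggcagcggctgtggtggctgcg
RPS6KB2: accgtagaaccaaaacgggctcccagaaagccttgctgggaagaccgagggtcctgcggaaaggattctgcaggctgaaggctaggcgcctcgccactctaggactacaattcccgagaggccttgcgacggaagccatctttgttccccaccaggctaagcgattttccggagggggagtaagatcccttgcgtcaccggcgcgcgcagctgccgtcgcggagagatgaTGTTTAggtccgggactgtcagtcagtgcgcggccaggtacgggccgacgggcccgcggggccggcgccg

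Downstream of AKT, the genes of the mTOR branch included the most abundant members. TSC2, the part of the TSC complex that acts on RHEB, had 1.85 to 2.64 FPKM, and TSC1, its stabilising partner, had 0.186 to 0.247. TSC2 overlaps PKD1 on the opposite strand (627 to 1034 counts against 3003 to 4276). RHEB had 43.5, 49.6 and 43.6 FPKM in control and 62.1, 52.0 and 46.9 in overexpressing libraries. In FPKM, overexpression 1 and 2 were above all controls, and overexpression 3 lay within the range of the controls. In TMM-scaled log2 CPM overexpression 2 fell just below control 2, and overexpression 3 lay above all controls. Processed copies of RHEB also had counts, RHEBP1 439 to 1138 and RHEBP2 1817 to 3694 against 9104 to 17293 for RHEB, each with its highest value in overexpression 1. Reads may be split among these 3 rows.

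The kinase MTOR itself had 0.376, 0.317 and 0.391 FPKM in control and 0.566, 0.570 and 0.295 in overexpressing libraries. In FPKM, overexpression 1 and 2 lay above all controls and overexpression 3 below them. In TMM-scaled log2 CPM overexpression 3 lay just above control 2. MLST8, a subunit of both mTOR complexes, had 33.0 to 35.8 FPKM, 58.0 to 120 times the level of MTOR within a library. AKT1S1 (PRAS40), an inhibitory subunit of complex 1, had 33.8 to 36.4 FPKM, but overlaps TBC1D17 on the opposite strand, which had similar counts (10069 to 14504 against 12343 to 16400). RPTOR, which defines complex 1, had 1.72 to 2.78 FPKM. RICTOR, which defines complex 2, had 0.0484, 0.0796 and 0.108 FPKM in control and 0.255, 0.120 and 0.124 in overexpressing libraries, without overlap in FPKM. RICTOR, at chr5:38937920-39074402, overlaps OSMR on the opposite strand, with 1076 to 1772 counts against 40 to 272 for RICTOR.

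The substrates of mTOR complex 1 had very unequal levels. EIF4EBP1 (4E-BP1), which blocks cap-dependent translation until it is phosphorylated, was the most abundant member at 219, 199 and 214 FPKM in control and 213, 195 and 220 in overexpressing libraries. RPS6KB2 (S6K2) had 45.9, 46.3 and 49.2 FPKM in control and 46.0, 44.3 and 46.3 in overexpressing libraries. RPS6KB1 (S6K1, chr17:59893046-59950421), its better known relative, had 0.294, 0.260 and 0.259 FPKM in control and 2.13, 0.315 and 0.295 in overexpressing libraries. In FPKM the groups did not overlap for RPS6KB1, but overexpression 3 lay only just above control 1. Overexpression 1 stood far above the other 5 libraries. RPS6KB2 exceeded RPS6KB1 by 21.6 times in overexpression 1 and by 141 to 190 times in the others.

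**Figure D2:**
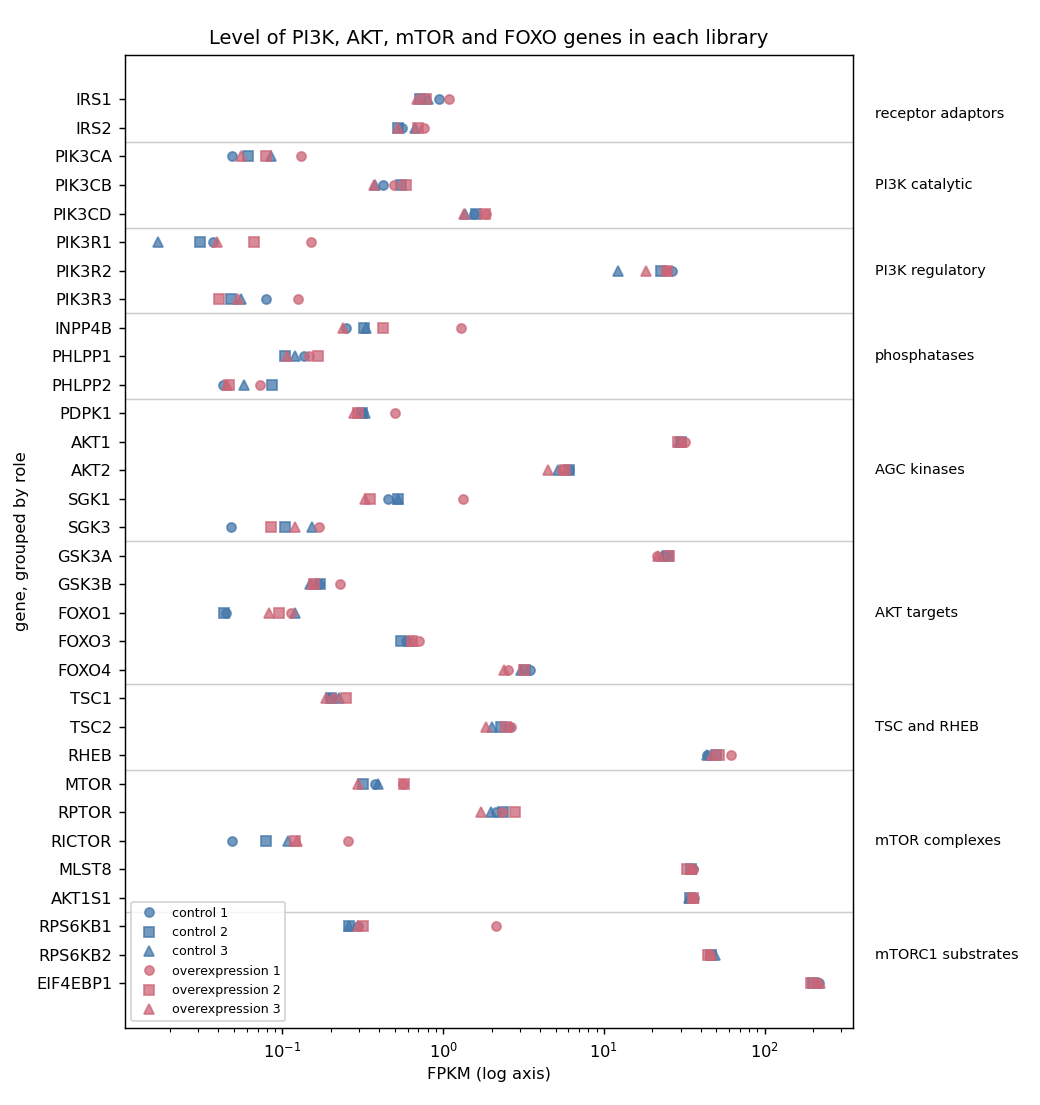
FPKM (log axis) of each member in the 6 libraries, grouped by role, with control libraries in blue and overexpressing libraries in red. EIF4EBP1 lies near 210 FPKM in every library, and the red circle of overexpression 1 stands to the right for RPS6KB1, INPP4B, SGK1 and PIK3R1.

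The comparison asks whether mRNAs of the pathway differ between overexpressing and control cells. None of the 32 members passed the edgeR quasi-likelihood test, with Benjamini-Hochberg adjustment over all 15951 genes and a threshold of 0.05. Of those genes 0 passed (0%), and 611 had an unadjusted p under 0.05. DESeq2 passed 14 genes (0.0799%) and 0 members. In bulk RNA, fewer cells that express a gene and less RNA per cell cannot be told apart. An unadjusted p under 0.05 was reached by 2 of 32 members with higher values (2.56% of all genes) and by 0 with lower values (1.27% of all genes). Those were PIK3R1, with a log2 fold change (overexpression over control) of 1.5 (SE 0.51, unadjusted p = 0.0196, adjusted p = 0.994 by edgeR), and RICTOR, at 1.01 (SE 0.40, unadjusted p = 0.0383, adjusted p = 0.994 by edgeR). Without overexpression 1 their log2 values were 0.86 and 0.59. Without control 3 that of PIK3R1 no longer reached an unadjusted p under 0.05, nor did that of RICTOR without control 1 or 2.

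Groups did not overlap in FPKM, with overexpression higher, for 4 of 32 members (PIK3R1, RICTOR, RPS6KB1 and FOXO3), against 5.67% of all genes tested. With overexpression lower there were 0 of 32, against 2.55%. These counts depend on the scaling. In TMM-scaled log2 CPM, overexpression 2 fell below control 3 for RICTOR and FOXO3 and below control 1 for RPS6KB1. PIK3R1 stayed separated there. For AKT2, FOXO4 and GSK3A every overexpressing library was below every control on that scale. The shares of all genes on that scale were not counted. FOXO3 had 0.581 ± 0.0316 FPKM (SD, n = 3) in control and 0.665 ± 0.0329 (SD, n = 3) under overexpression, and its log2 fold change was 0.15 (SE 0.17). RPS6KB1 had means of 0.271 ± 0.0201 and 0.912 ± 1.05 FPKM, and its log2 fold change of 1.66 (SE 0.73) was 0.15 without overexpression 1. For INPP4B the means were 0.30 ± 0.0459 and 0.649 ± 0.561 FPKM, and the log2 fold change was 1.04 (SE 0.55), or 0.08 without that library. The lower side held AKT2, at 5.79 ± 0.504 and 5.21 ± 0.663 FPKM (log2 -0.20, SE 0.09), and FOXO4, at 3.25 ± 0.220 and 2.69 ± 0.417 FPKM (log2 -0.32, SE 0.14). The unadjusted p was 0.0581 for AKT2 and 0.0600 for FOXO4, and the adjusted p was 0.994 for both by edgeR.

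For 7 of the 8 members at 10 FPKM or more the intervals were narrow, and PIK3R2 was the exception, with a 95% interval of the log2 fold change from -0.48 to 0.68. It ran from -0.23 to 0.21 for AKT1, from -0.20 to 0.22 for AKT1S1, from -0.28 to 0.17 for MLST8 and from -0.32 to 0.14 for RPS6KB2. For EIF4EBP1 it ran from -0.32 to 0.22, for RHEB from -0.05 to 0.42 and for GSK3A from -0.33 to 0.07. Among the scarce members the interval varied in width. It was wide for PIK3CA (-0.48 to 1.19) and FOXO1 (-0.70 to 1.53). It was narrower for others, such as TSC1 (-0.43 to 0.40) and FOXO3 (-0.25 to 0.54). Differences of 2-fold were thus outside the interval for all 8 abundant genes, TSC1 and FOXO3, and inside it for PIK3CA and FOXO1.

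**Figure D3:**
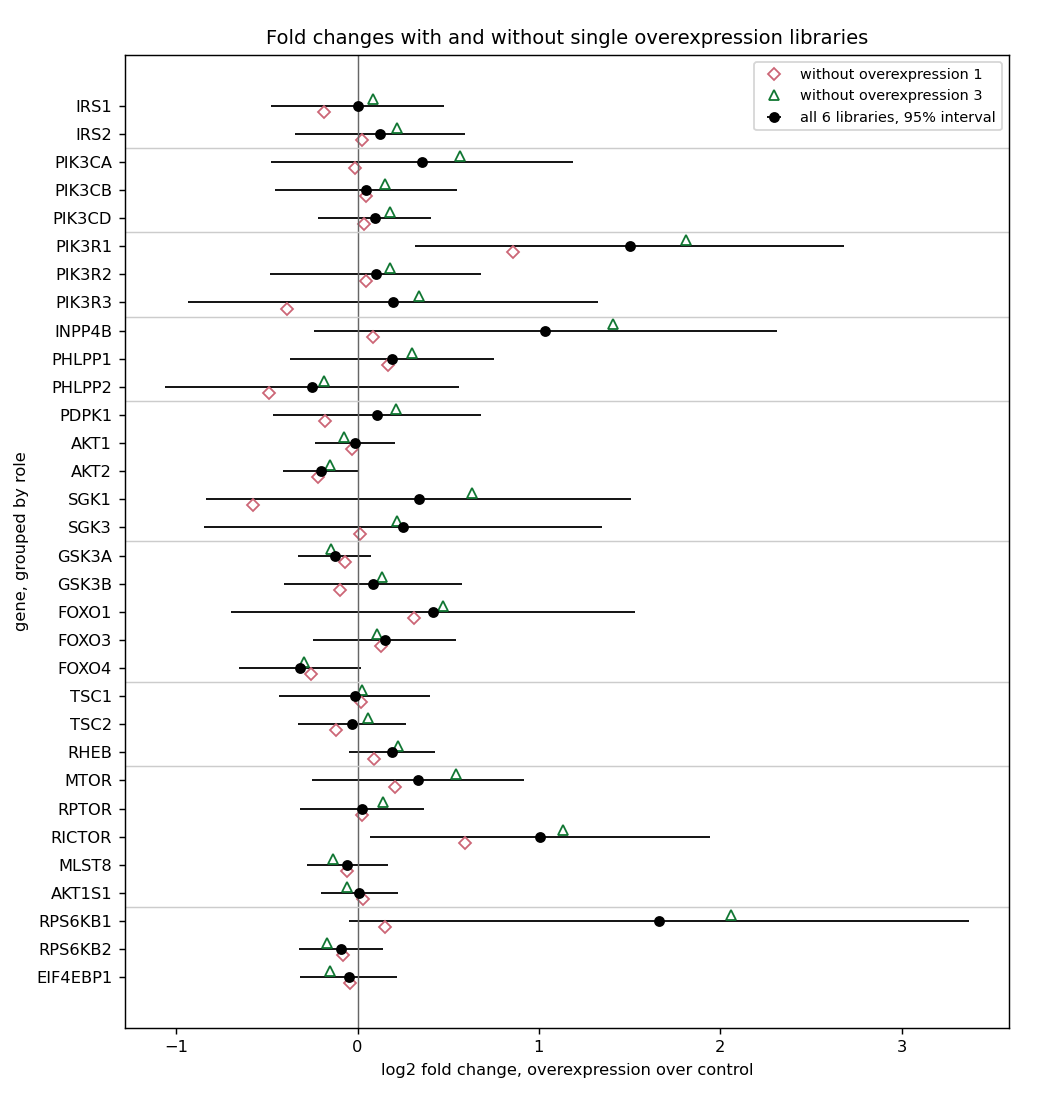
Log2 fold change, overexpression over control, of each member with its 95% interval from all 6 libraries (black), and the value without overexpression 1 (red diamond) or overexpression 3 (green triangle). RPS6KB1 moves from 1.66 to 0.15 and SGK1 from 0.34 to -0.58 without overexpression 1.

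Of the 32 log2 values 22 were positive and 10 negative, against 54.8% positive over all genes tested, and the median was 0.10 against 0.02. Positive values were found for 17 of 19 members with a mean under 1 FPKM (median 0.19, against 0.10 for all tested genes at that level). The share of positive values among all tested genes at that level was not counted. Among the 5 members from 1 to 10 FPKM 2 were positive (median -0.03), and among the 8 at 10 FPKM or more 3 were (median -0.03, the same as for all genes there). Without overexpression 1 the count was 17 positive of 32, against 51.6% of all genes, and the median was 0.01.

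Overexpression 1 was the library in which the members departed most from the rest. For each gene, the mean log2 CPM of the other 5 libraries was subtracted from that of a given library, and this difference is called its deviation. In overexpression 1 it was above 0.5 for 10 of 32 members, against 20.7% of all genes tested, and under -0.5 for 0 (7.45% of all genes). In the other libraries 0 to 2 members were above 0.5, against 7.5%, 8.02%, 8.06%, 9.21% and 9.69% of all genes (control 1 to 3, then overexpression 2 and 3). Relative to the mean of the other 5 libraries, FPKM in overexpression 1 was 7.48 times as high for RPS6KB1, 4.13 for INPP4B, 3.93 for PIK3R1, 3.03 for SGK1 and 2.66 for RICTOR. The ratio was 2.26 for PIK3R3, 1.97 for PIK3CA, 1.67 for SGK3, 1.63 for PDPK1 and 1.47 for FOXO1. All 10 had a mean under 1 FPKM, where 30.1% of all tested genes were above 0.5 in that library and 10 of 19 members were.

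The transcripts of these 10 genes had GC contents of 34.8% to 51.9%. In members whose longest transcript had a GC content under 45%, 7 of 10 were above 0.5 in overexpression 1, against 42% of all genes of that class. From 45% to 55% it was 3 of 9, against 13.1%, and at 55% or more 0 of 13, against 6.99%. Across the 32 members the correlation of the deviation with GC content was -0.69 in overexpression 1 and 0.69 in control 1, and between 0.01 and 0.32 in the other 4 libraries. Over all genes the values in overexpression 1 and control 1 were -0.36 and 0.20, and the remaining libraries ran from -0.04 (overexpression 2) to 0.18 (overexpression 3). A deviation is taken against the other libraries, so these correlations are not independent between libraries. With an offset for GC content per library the log2 fold change was 1.02 for RPS6KB1, 0.53 for RICTOR, 0.44 for INPP4B and 1.14 for PIK3R1, and 0.0031 for SGK1. Under that offset 19 of 32 members were positive, against 46.8% of all genes, and the median was 0.016. The part of GC content and of the fibroblast markers in the difference between groups was not tested beyond these values.

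**Figure D4:**
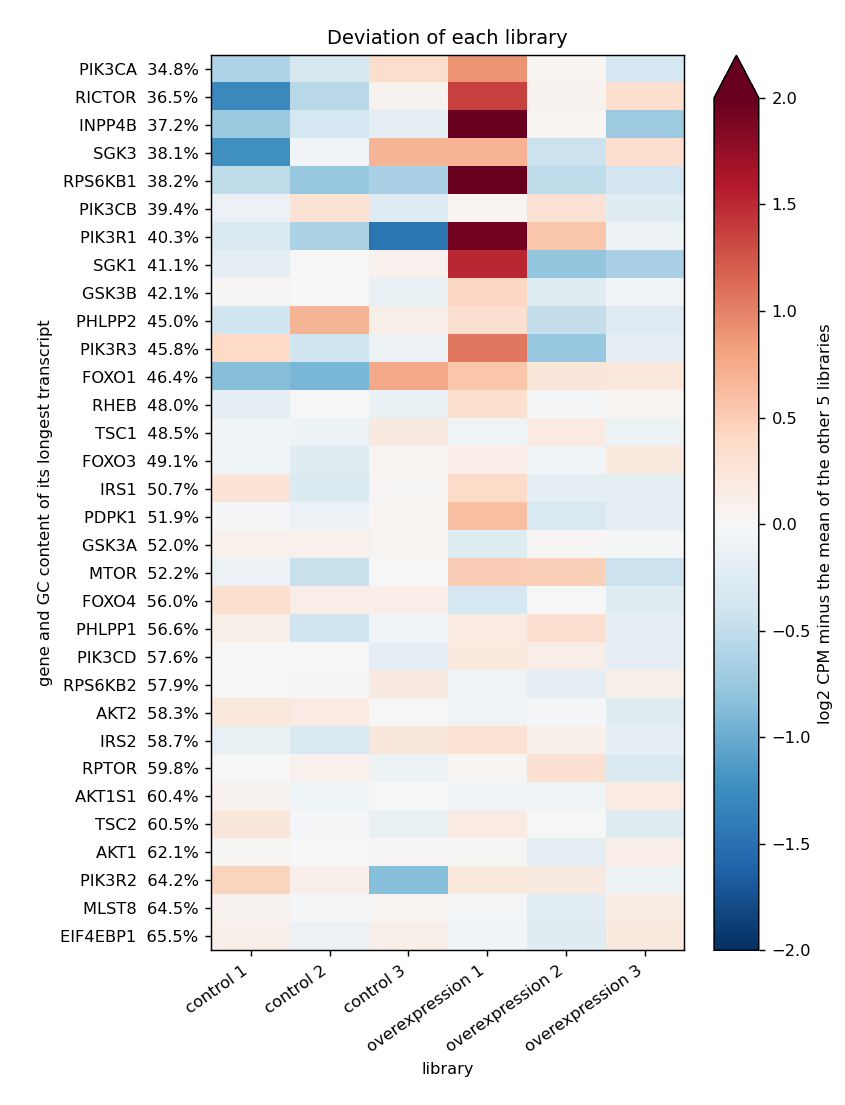
Deviation of each library (log2 CPM of the library less the average of the other 5, capped at 2 in colour) for each member, ordered by the GC content of its longest transcript. The red cells of overexpression 1 lie in the upper rows, where RPS6KB1 has a deviation of 2.78.

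The level of a member also went with its base composition. Spearman's rho between mean FPKM and GC content was 0.73 over the 32 members and 0.34 over 15338 genes, and between mean FPKM and transcript length it was -0.57 and -0.28. All these points come from the same 6 libraries, and the correlations are descriptions across genes, which are not independent replicates. Within families the more abundant gene had the higher GC content for GSK3A over GSK3B (52.0% and 42.1%), RPS6KB2 over RPS6KB1 (57.9% and 38.2%), PIK3R2 over PIK3R1 (64.2% and 40.3%) and TSC2 over TSC1 (60.5% and 48.5%). The same order held for FOXO4 (56.0%), FOXO3 (49.1%) and FOXO1 (46.4%). It also held for AKT1 over AKT2, PIK3CD over PIK3CB and PIK3CA, PIK3R2 over PIK3R3, SGK1 over SGK3 and PHLPP1 over PHLPP2. IRS1 and IRS2 went against it, since IRS1 had the higher mean (0.836 and 0.620 FPKM) and the lower GC content (50.7% and 58.7%). The part of GC content in the differences of level within families was not tested.

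**Figure D5:**
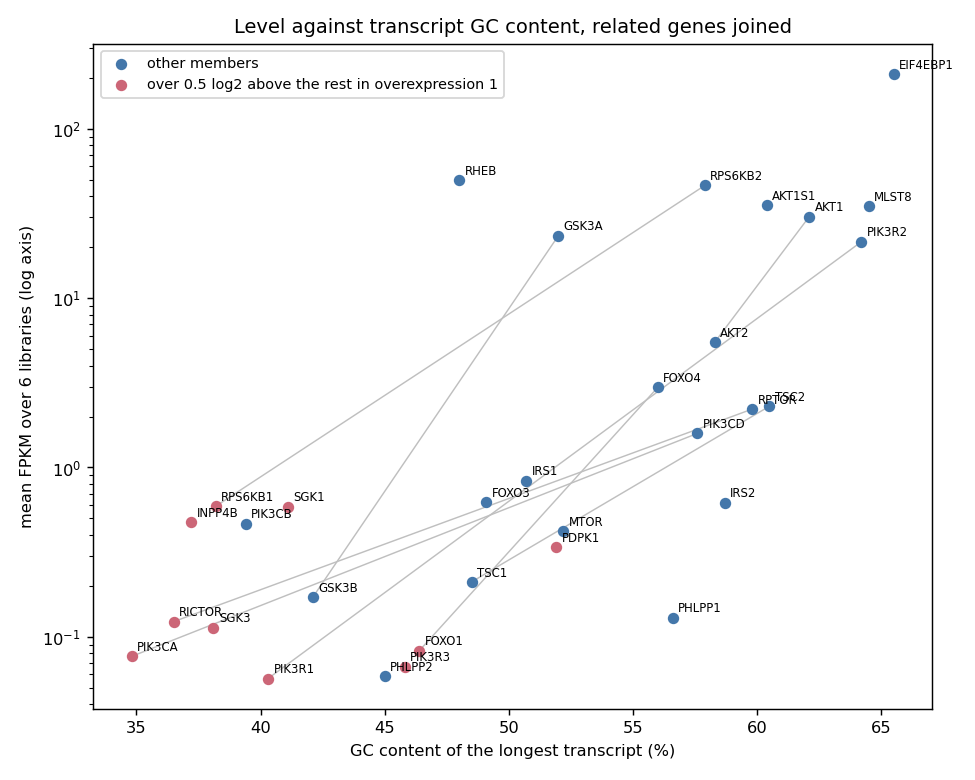
Mean FPKM over the 6 libraries (log axis) against the GC content of the longest transcript of each member, with grey lines joining related genes. Members over 0.5 log2 above the rest in overexpression 1 (red) all lie under 1 FPKM.

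Leaving out single overexpressing libraries changed which members stood out. Without overexpression 3, 0 members passed (0% of all genes) and 5 of 32 had higher values at an unadjusted p under 0.05, against 7.82% of all genes tested, and 0 had lower values (3.46%). These were PIK3R1, INPP4B, RPS6KB1, MTOR and RICTOR, with log2 values of 1.81, 1.41, 2.06, 0.55 and 1.13. MTOR is the one of these that was as high in overexpression 2 as in overexpression 1, and its value with all 6 libraries was 0.33 (SE 0.25). Without overexpression 1, 0 members passed (0.0247% of all genes), 0 had higher values at that level (1.31%) and 1 had lower values (1.58%). That gene was SGK1, which stood at -0.58 (SE 0.18, unadjusted p = 0.0109 by edgeR). With all 6 libraries its log2 was 0.34 (SE 0.50). Without overexpression 2, 0 members passed (0.0121% of all genes). At an unadjusted p under 0.05, 3 members were higher (4.8%), PIK3R1, RICTOR and RPS6KB1, and FOXO4 was lower (1.95%). Of the 32 values 23 were positive there, against 55.8% of all genes, and 23 without overexpression 3, against 53.3%. These fits share libraries, so they are not independent.

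Other genes of the pathway were read from lists of its receptors, partners and outputs, which were written with earlier results of these data known, and none passed the test in either direction. The genes named from each list are among the 4 with the smallest p, so their p-values are a description of the extremes of the lists. Of 13 receptors, ligands and adaptors tested 6 were positive, the median being -0.01. INSR, the insulin receptor and a known FOXO target, had 0.161, 0.145 and 0.201 FPKM in control and 0.339, 0.299 and 0.310 in overexpressing libraries, without overlap. Its log2 was 0.84 (SE 0.22, unadjusted p = 0.00514, adjusted p = 0.994 by edgeR), and it was 0.81 without overexpression 1 and 0.80 without overexpression 3. All 3 overexpressing libraries were high for INSR, a pattern that choosing genes by a small p favours. Of 26 FOXO targets tested, INSR included, 16 were positive (median 0.04). RBL2, a pocket protein of the retinoblastoma family, stood at 0.87 (SE 0.46), or 0.18 without overexpression 1.

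Partners of the mTOR complexes gave 3 positive of 8 (median -0.04). PRR5L, which binds mTOR complex 2, had 2.26, 2.44 and 2.0 FPKM in control and 1.44, 1.79 and 1.45 in overexpressing libraries. Its groups did not overlap and its log2 was -0.56 (SE 0.14, unadjusted p = 0.00469, adjusted p = 0.994 by edgeR). Of 28 genes that signal amino acids to mTOR complex 1, 17 were positive (median 0.03). WDR59, of the GATOR2 complex, had 1.01, 1.11 and 1.16 FPKM in control against 0.808, 0.786 and 0.789, a log2 of -0.50 (SE 0.15, unadjusted p = 0.00985, adjusted p = 0.994 by edgeR). RRAGC, a RAG GTPase, stood at 0.27 (SE 0.13).

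Among 13 outputs of mTOR complex 1 there were 4 positive values (median -0.08). PDCD4, a translation inhibitor degraded after phosphorylation by S6 kinase, had 0.396, 0.593 and 0.496 FPKM in control and 1.07, 0.989 and 0.680 in overexpressing libraries. Its log2 was 0.82 (SE 0.23, unadjusted p = 0.00821), or 0.51 with the GC offset. TFEB, a transcription factor of lysosomal genes that mTOR complex 1 holds in the cytoplasm, had 4.35, 4.47 and 4.51 FPKM in control and 3.44, 3.48 and 3.64 in overexpressing libraries, a log2 of -0.38 (SE 0.11, unadjusted p = 0.0116). The adjusted p was 0.994 for both by edgeR, and for both the groups did not overlap. Of 11 other PI3K and lipid phosphatase genes 5 were positive (median -0.12), with PIK3C2A, a class II PI3K, at 0.126, 0.148 and 0.208 FPKM in control and 1.47, 0.186 and 0.196 in overexpressing libraries. Its log2 of 1.86 (SE 0.79) was 0.22 without overexpression 1.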

How the data were processed

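Per the submitters' processing notes, reads were processed with cutadapt 1.9, HISAT2 2.0.4, StringTie 1.3.4d and edgeR on the build hg38; annotation release and strand setting are not given in the sources used here. The deposited expected counts are whole numbers (so rounding changed none) and not scaled between libraries; low values pile up at multiples of 4, so they may overstate fragments and no counting intervals are given. FPKM were computed by the authors.

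Counts of 3 overexpression and 3 control libraries were fitted with edgeR 4.0.16 (R 4.3.3; TMM, filterByExpr with a minimum count of 10, group as the only term, quasi-likelihood test, 2-sided). The procedure was tested on simulated counts with the same dispersion for every gene and no deviating library. That test does not cover a library such as overexpression 1. Limma 3.58.1 and DESeq2 1.42.0 served as alternatives, with other scalings, filters, a replicate block, counts divided by 4, each library left out, and, chosen after seeing the data, a GC offset per library (loess on the longest GENCODE 29 transcript, available for 96.2% of tested genes) and a restriction to members with a mean of at least 1 FPKM. Members and lists were chosen with earlier results of these data known. All members were named, and of each related list up to 4 genes, taken from those with the smallest p; RHEBP1, RHEBP2, FOXO3B and overlapping genes were chosen after their values were seen. Promoters are RefSeq windows on GRCh38.p14. No 2 libraries held identical counts. With 3 libraries a group, no formal test for outlying samples was made, and the main fit used every library.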

Additional observations from a re-analysis of the deposited data

How the results depend on the processing

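No member passed the threshold under any alternative run, and 441 of 482 member values kept their sign. DESeq2 called 14 genes, 0 of them members. The median log2 fold change of the members was -0.023 over the 9 members with a mean of at least 5 FPKM and -0.031 over the 13 with at least 1 FPKM, where fewer members enter. Leaving out 1 library at a time gave 0 to 4 genes called (4 without overexpression 1, 2 without overexpression 2), 0 members and a median of 0.01 to 0.17. In sign, values turned with the GC offset for PIK3CA (-0.17), PIK3CB (-0.22), AKT1 (0.0024), SGK3 (-0.11) and GSK3B (-0.093). They turned with upper-quartile scaling for AKT1S1 (-0.023), RPTOR (-0.016) and IRS1 (-0.049), and for IRS1 also with RLE scaling (-0.013), DESeq2 (-0.0062) and the replicate block (-0.0071). AKT1 was at 0.017 with a mean FPKM of at least 5 and at 0.027 and 0.028 with limma at a pseudocount of 1 and 0.1, and TSC2 at 0.010 and 0.011 with limma at these. Across the fits without 1 library the ranges that crossed 0 were -0.013 to 0.63 for PIK3CA, -0.065 to 0.20 for PIK3CB, -0.15 to 0.34 for PIK3R2, -0.39 to 0.50 for PIK3R3, -0.074 to 0.065 for AKT1, -0.061 to 0.054 for AKT1S1, -0.18 to 0.26 for PDPK1, -0.098 to 0.14 for RPTOR, -0.13 to 0.018 for MLST8, -0.087 to 0.061 for TSC1, -0.12 to 0.057 for TSC2, -0.15 to 0.038 for EIF4EBP1, -0.18 to 0.12 for IRS1, -0.49 to 0.027 for PHLPP2, -0.58 to 0.67 for SGK1, -0.077 to 0.70 for SGK3 and -0.096 to 0.21 for GSK3B. The causes of these changes were not tested. Correlations of deviations between control and overexpressing libraries of the same number were -0.03, 0.04 and 0.07 for replicates 1, 2 and 3. Pairs of unlike number ran from -0.099 to 0.056, and the highest of all was that of replicate 3. All were weak, and the labels do not say whether the numbers mark a shared batch. With the replicate number as a block 0 genes and 0 members were called, and the median was 0.07. Depth limits members with few counts, such as PIK3R1 (24 to 194 deposited counts).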
